A study of Mus musculus with 6 samples.

Results

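Glycogen synthesis and breakdown genes of skeletal muscle were compared between wild type mice and mice without Sparc, the gene of a secreted matricellular glycoprotein. The 9 genes were Gyg, Gys1, Gbe1, Ppp1r3c, Ppp1r3a, Pygm, Phka1, Phkb and Phkg1, chosen by symbol as core muscle genes of the pathway, out of 19938 genes with a probe set of 1 symbol on the array. Each had 1 such probe set, and all 9 passed the filter on dim probe sets. Total RNA of gastrocnemius, a calf muscle, was hybridised to 1 whole-transcript Affymetrix array per mouse. The groups were 3 wild type males and 3 homozygous Sparc knockout males, all 12 weeks old, and both genotypes carry the strain label B6;129S-Sparctm1Hwe/J, a mixed B6 and 129S background. Litter, the part of Sparc removed by the allele, and the day of hybridisation are not in the labels. With no word on separate litters, p-values measure the spread between these mice only.

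Glycogen is the branched glucose store of the muscle fibre, filled from blood glucose after meals and drawn down during contraction. Glycogenin starts each particle, glycogen synthase lengthens the chains and the branching enzyme adds branches, while phosphorylase releases glucose phosphate from the chain ends. Phosphorylase kinase switches phosphorylase on when calcium or adrenaline signals arrive, and protein phosphatase 1, held on the particle by targeting subunits, switches synthase on and phosphorylase off. AMP-activated protein kinase, named in the title of the study, is known to act on this system, largely by phosphorylation, which transcript levels do not measure.

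Levels are given as log2 of the deposited intensity, and changes as knockout minus wild type on that scale. Each probe set has its own brightness, so levels were not compared between genes. The median intensity of an array was 40.5 to 44.7. Precision is limited by having 3 arrays a group. Sparc itself was lower in every knockout, at 11.80 ± 0.072 in wild type and 6.34 ± 0.47 in knockout muscle (SD, n = 3 each), a change of -5.46 ± 0.20 (SE; limma adjusted p = 2.08e-05). None of the 9 glycogen genes lies on chromosome 11, which carries Sparc; of the other pathway genes below, Gaa and Ugp2 do. All 8 skeletal muscle fibre markers looked for (among them Acta1, Ckm and Myh4) were well above the dim filter of 3.90, at mean levels of 11.8 to 13.4. On the first principal component knockout array 2, at 2.45, lay apart from its group (26.5 for array 1, 19.8 for array 3), and the wild types lay between -16.8 and -15.8. Results that rest on it are given with and without it.

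Glycogen genes had mostly lower mean levels in knockout muscle, by modest amounts, and Gbe1 went the other way. The mean was lower in 7 of the 9 genes and higher in Gbe1 and Ppp1r3a. Their median change was -0.23, against 0.0001 over all 16487 genes tested, of which 8243 had a negative change. By limma with Benjamini-Hochberg adjustment over all genes, 0 of the 9 passed at 0.05, where 0.995% of all genes did. Adjusted p-values ran from 0.133 to 0.868. At an unadjusted p of 0.05, 3 of the 9 passed, with Gbe1 higher and Gyg and Ppp1r3c lower, against 18.4% of all genes (8.16% higher and 10.3% lower). The same 3 genes were those in which knockout and wild type arrays did not overlap, a pattern found with knockouts higher in 11.1% and lower in 13.8% of all genes. In bulk muscle, fewer fibres in the sample and less transcript per fibre cannot be told apart.

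**Figure D1:**
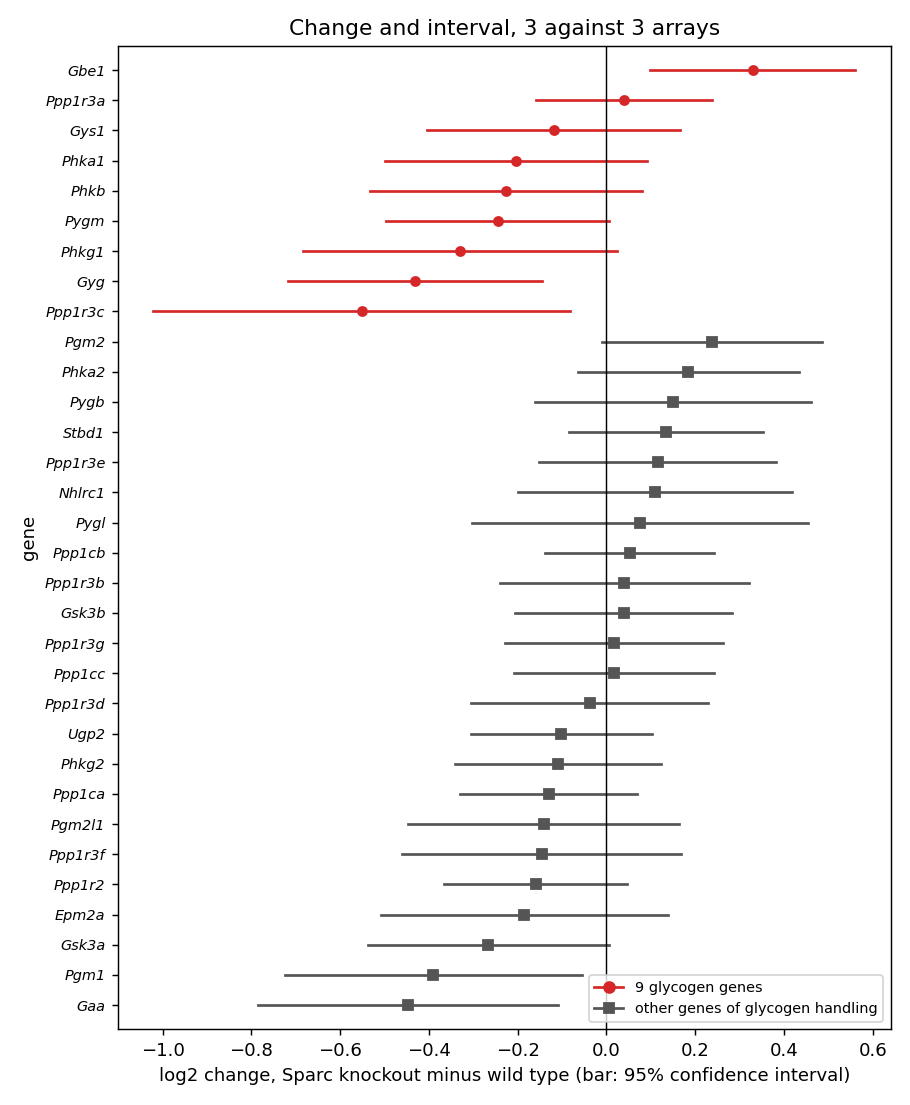
Log2 change, knockout minus wild type, on the x axis for the 9 glycogen genes (red circles) and for the other tested genes of glycogen handling (grey squares), with 95% confidence intervals from limma over 3 against 3 arrays. Among the 9, the intervals of Gbe1, Gyg and Ppp1r3c leave out 0, with Gbe1 at 0.33 and Ppp1r3c lowest at -0.55.

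Among the genes that build glycogen, the estimates of the primer protein and the branching enzyme had opposite signs, and that of glycogen synthase was smaller. None of them passed over all genes, and they were not tested against each other. Gyg, glycogenin, which attaches the first glucose units to itself, read 11.09, 10.89 and 10.88 in wild type arrays 1, 2 and 3 and 10.40, 10.78 and 10.37 in knockout arrays 1, 2 and 3. All knockouts lay below all wild types, with knockout array 2 only 0.17 below the wild type mean. The change was -0.43 ± 0.13 (SE; 95% interval -0.72 to -0.14), 1.35-fold lower (limma adjusted p = 0.133). Gbe1, the glycogen branching enzyme, read 8.73, 8.61 and 8.56 in the wild types and 8.92, 8.85 and 9.11 in the knockouts. Here every knockout lay above every wild type, including knockout array 2. The change was 0.33 ± 0.10 (SE; 95% interval 0.098 to 0.56), 1.26-fold higher (limma adjusted p = 0.143). Set against Gyg in the same array, Gbe1 stood 0.84, 0.39 and 1.06 above its wild type relation in knockout arrays 1, 2 and 3, while the wild type arrays lay within -0.041 to 0.041. That pair was chosen after its values were seen, and the difference was not tested.

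Gys1, muscle glycogen synthase, which lengthens the chains, read 9.95, 10.04 and 10.00 in wild type and 9.59, 10.02 and 10.02 in knockout muscle. Only knockout array 1 was low, and the other knockouts lay inside the wild type range. The change was -0.12 ± 0.13 (SE; 95% interval -0.40 to 0.17; limma adjusted p = 0.68), and without knockout array 1 it was 0.024.

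Promoters of the 3 genes without overlap, and of Ppp1r3a as the gene whose change was nearest to 0, are shown so that their sequence can be read beside the values. They are RefSeq sequences of build GRCm38.p6, from 250 bases before to 50 after the annotated start, and all 9 genes matched an entry. Capitals mark CACGTG, an E-box bound by factors of the clock and of carbohydrate response, and CAGCTG, an E-box bound by myogenic factors. They also mark a loose form of the site of the muscle factor MEF2 (CTA, any 4 bases, TAG). The MEF2 site itself takes only A or T at these 4 bases. Each motif reads the same on both strands, and no marked stretch overlaps another.
Gyg, chr3:20155067-20155366, minus strand: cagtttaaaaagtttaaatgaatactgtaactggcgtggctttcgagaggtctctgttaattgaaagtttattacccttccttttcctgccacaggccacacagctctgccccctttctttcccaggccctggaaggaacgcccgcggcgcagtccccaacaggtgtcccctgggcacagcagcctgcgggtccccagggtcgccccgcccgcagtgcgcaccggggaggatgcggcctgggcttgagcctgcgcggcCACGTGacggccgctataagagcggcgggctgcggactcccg
Ppp1r3c, chr19:36736555-36736854, minus strand: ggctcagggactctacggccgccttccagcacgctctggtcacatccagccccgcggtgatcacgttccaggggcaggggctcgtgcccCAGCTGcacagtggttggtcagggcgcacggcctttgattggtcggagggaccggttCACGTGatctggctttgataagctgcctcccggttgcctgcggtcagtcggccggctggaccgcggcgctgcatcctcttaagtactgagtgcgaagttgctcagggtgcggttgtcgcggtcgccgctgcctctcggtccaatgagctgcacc
Gbe1, chr16:70313699-70313998, plus strand: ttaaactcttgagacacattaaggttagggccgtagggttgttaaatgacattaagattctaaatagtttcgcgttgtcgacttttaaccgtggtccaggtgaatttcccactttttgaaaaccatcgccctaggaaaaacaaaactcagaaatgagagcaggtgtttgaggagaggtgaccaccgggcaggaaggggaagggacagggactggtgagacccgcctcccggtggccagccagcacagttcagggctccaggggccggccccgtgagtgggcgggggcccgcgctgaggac
Ppp1r3a, chr6:14755225-14755524, minus strand: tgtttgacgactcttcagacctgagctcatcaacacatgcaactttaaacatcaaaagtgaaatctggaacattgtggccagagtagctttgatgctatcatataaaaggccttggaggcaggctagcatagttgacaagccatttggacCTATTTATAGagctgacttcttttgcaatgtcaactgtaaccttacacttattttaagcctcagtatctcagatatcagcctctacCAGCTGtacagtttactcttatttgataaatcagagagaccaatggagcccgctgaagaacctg
The letters CACGTG occur in the windows of Gyg and Ppp1r3c alone among the 9, 2 of 9 against 7.15% of 32851 promoters of the same length. They begin 8 bases after the start of Gyg and 104 bases before that of Ppp1r3c. CAGCTG is present in 6 of the 9 windows (Gys1, Pygm, Phka1, Phkb, Ppp1r3a and Ppp1r3c) against 16.3% of all promoters. The loose MEF2 form is present in Phka1 and Ppp1r3a, against 3.69%. In Ppp1r3a its middle bases are all A or T, but in Phka1 (CTAAAACTAG) they include a C. Neither the Gbe1 nor the Phkg1 window holds any of these letters. The share of G and C in the 9 windows ran from 41.0% in Ppp1r3a to 73.3% in Phkb, against a median of 52.7% over all promoters. The motif shares were not matched for it. The motifs were chosen with the values of the genes known, and a match describes the letters only.

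The targeting subunits of protein phosphatase 1 differed from each other in pattern. Ppp1r3c, also called protein targeting to glycogen, which binds both the phosphatase and its glycogen substrates, read 9.71, 9.86 and 10.21 in the wild types and 8.92, 9.70 and 9.51 in the knockouts. The groups did not overlap, but by a margin of 0.01 only, between 9.71 in wild type array 1 and 9.70 in knockout array 2. Its change was -0.55 ± 0.21 (SE; 95% interval -1.02 to -0.082), 1.47-fold lower (limma adjusted p = 0.204). This estimate was the largest of the 9 with all arrays, but without knockout array 1, which was 1.01 below the wild type mean, it was -0.32 against -0.37 for Gyg, and without wild type array 3 it was -0.41 against -0.47. Ppp1r3a, the striated muscle targeting subunit, read 11.41, 11.57 and 11.53 in wild type and 11.47, 11.65 and 11.51 in knockout muscle. The ranges overlapped, with knockout array 2 above every wild type, and the SDs were 0.083 and 0.093. The change was 0.039 ± 0.087 (SE; limma adjusted p = 0.868), and its 95% interval of -0.16 to 0.24 excludes a decrease as large as the estimates of Gyg and Ppp1r3c.

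Genes of glycogen breakdown were lower in knockout arrays 1 and 3 and at the wild type level in knockout array 2, and 0 of these 4 passed over all genes. Pygm, muscle glycogen phosphorylase, the enzyme missing in McArdle disease, read 12.77, 12.82 and 12.89 in the wild types and 12.39, 12.81 and 12.53 in the knockouts. Knockout array 2 lay inside the wild type range, and the others lay below it. The change was -0.25 ± 0.11 (SE; 95% interval -0.50 to 0.0060; limma adjusted p = 0.283).

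The subunits of phosphorylase kinase showed the same arrangement of arrays. Phkg1, the catalytic gamma subunit of muscle, read 10.60, 10.78 and 10.77 in wild type and 10.25, 10.76 and 10.15 in knockout muscle. Its change was -0.33 ± 0.16 (SE; 95% interval -0.68 to 0.023; limma adjusted p = 0.303). Phka1, the regulatory alpha subunit of muscle, read 10.83, 11.04 and 11.06 against 10.55, 11.02 and 10.75, a change of -0.20 ± 0.13 (SE; limma adjusted p = 0.458). Phkb, the regulatory beta subunit, read 11.02, 11.09 and 11.23 against 10.81, 11.18 and 10.67, a change of -0.23 ± 0.13 (SE; limma adjusted p = 0.419). In each of the 3 subunits knockout array 2 lay inside the wild type range. With Pygm and Gys1 this held for 5 of the 9 genes, against 35.3% of all genes. The 95% intervals, -0.50 to 0.092 for Phka1 and -0.53 to 0.080 for Phkb, take in 0 as well as decreases of the size seen for Gyg.

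**Figure D2:**
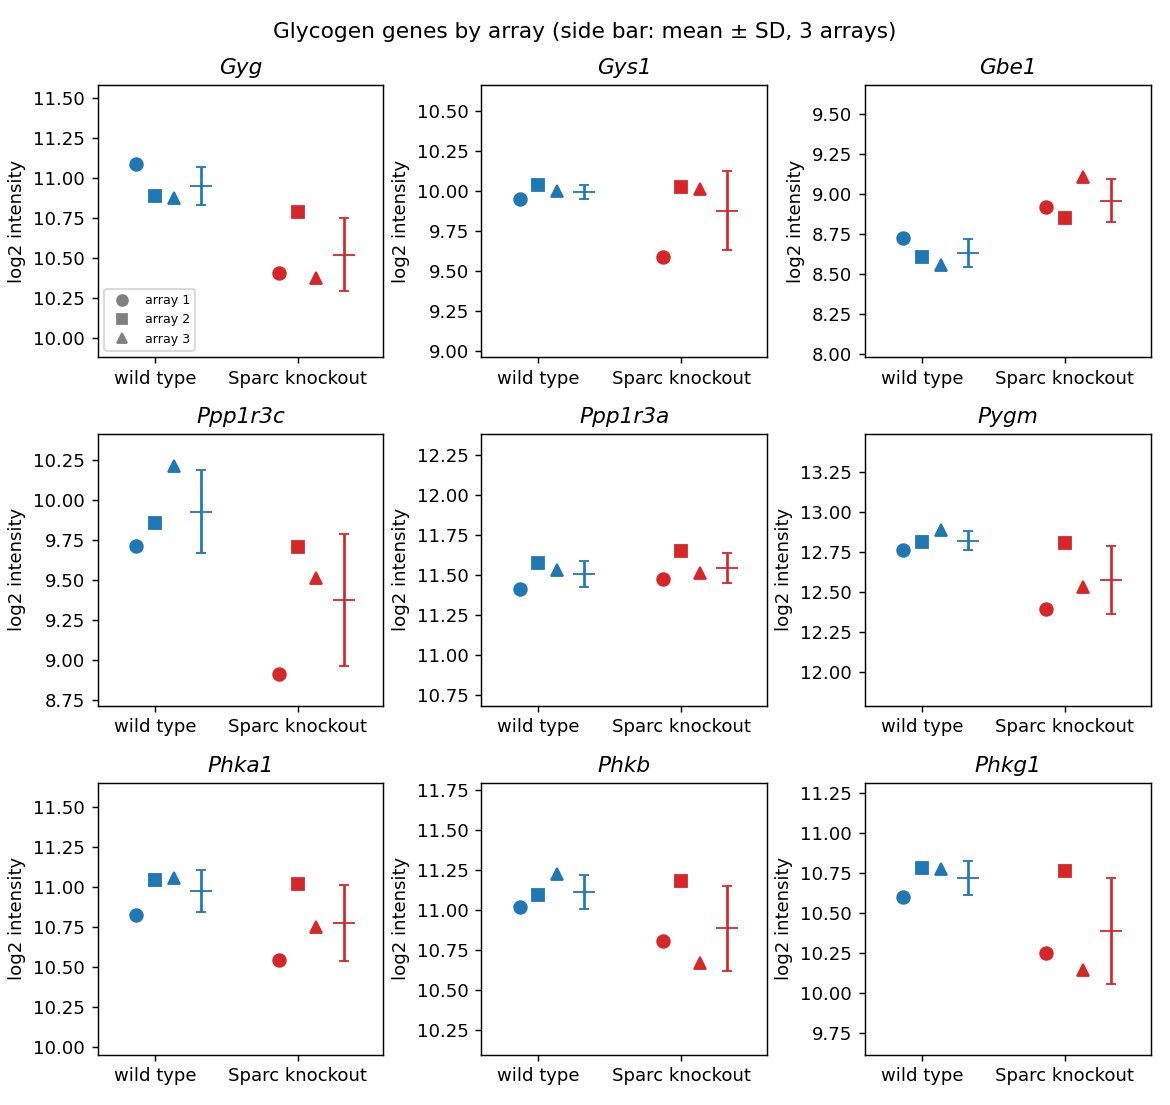
Log2 intensity (y axis, the same span in each panel) of the 9 glycogen genes in each wild type (blue) and Sparc knockout (red) array; the symbol gives the array number and the side bar the mean and SD of 3 arrays. In Pygm, Phka1, Phkb and Phkg1 the square of knockout array 2 sits among the wild types, with knockout arrays 1 and 3 below them.

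The spread between knockout mice was large beside the change in most of the 9 genes. It was smaller beside the change in Gbe1 (knockout SD 0.13, change 0.33) and Gyg (knockout SD 0.23, change -0.43). In all 9 genes the SD was larger in knockouts than in wild types, as in 75.4% of all genes. In 6 of the 9 (Gyg, Ppp1r3c, Pygm, Phka1, Phkb and Phkg1) both knockout arrays 1 and 3 lay below every wild type, against 22.3% of all genes. Knockout array 2 had the highest level of the 3 knockouts in 8 of the 9, Gbe1 being the exception, against 36.2% of all genes. Averaged over Pygm and the 3 kinase subunits, the deviation from the wild type mean was -0.41, 0.037 and -0.38 in knockout arrays 1, 2 and 3. Wild type array 1 was the lowest wild type in 7 of the 9, all but Gyg and Gbe1, against 44.2% of all genes.

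Knockout array 2 was singled out from these same values, and it was the highest knockout in 8 of the 9. Leaving it out therefore lowers the knockout mean of those genes, and p-values without it are a description only. Without knockout array 2, 3 of the 9 fell at an adjusted p of 0.05 by limma and none rose, where 3.60% of all genes fell and 2.57% rose. These were Gyg at -0.56 (adjusted p = 0.0187), Phkg1 at -0.52 (adjusted p = 0.0237) and Pygm at -0.36 (adjusted p = 0.0344). Gbe1 was then at 0.38 (adjusted p = 0.075), Ppp1r3c at -0.71 (adjusted p = 0.0862), Phkb at -0.38 (adjusted p = 0.0574) and Phka1 at -0.33 (adjusted p = 0.118). With any one of the other 5 arrays left out, 0 of the 9 passed. Without wild type array 3 only Gyg stayed under an unadjusted p of 0.05, and Ppp1r3c was at -0.41. Without knockout array 1, Phka1 was at -0.090 and Pygm at -0.15, and without knockout array 3, Phkb was at -0.12 and Phkg1 at -0.21.

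**Figure D3:**
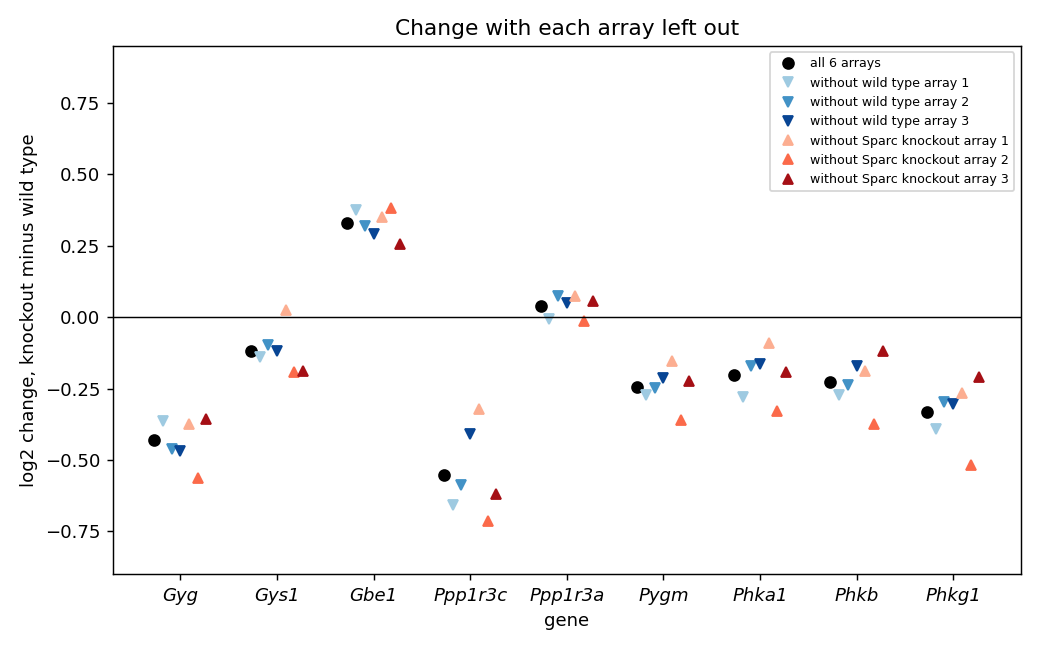
Log2 change, knockout minus wild type (y axis), of the 9 glycogen genes from all 6 arrays (black circles) and with 1 wild type (blue) or 1 knockout (red) array left out. Gyg, Gbe1, Ppp1r3c, Pygm and the kinase subunits stay on one side of 0 in all of these, while Gys1 and Ppp1r3a cross it. The fits without knockout array 2 give the lowest value for each of the 9 genes but Gbe1, for which they give the highest.

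The other genes of glycogen handling showed no common direction. Of 24 analysed here, Gys2, the liver synthase, lay under the dim filter at 3.06 to 3.53. Of the 23 tested, 12 had a positive and 11 a negative change, with a median of 0.016. By limma 0 passed over all genes, and 2 were lower and 0 higher when p was left unadjusted (at 0.05), against 10.3% and 8.16% of all genes. The groups did not overlap in 2 lower genes (Gaa and Ppp1r2) and 1 higher gene (Pgm2) of the 23, against 13.8% and 11.1% of all genes. Gaa, the lysosomal acid glucosidase that digests glycogen and is deficient in Pompe disease, and which lies on the chromosome of Sparc, read 9.58, 9.67 and 9.73 in wild type and 8.93, 9.55 and 9.16 in knockout muscle. The change, with knockout array 2 nearest to the wild types, was -0.45 ± 0.15 (SE; limma adjusted p = 0.164). Pgm1, the phosphoglucomutase that links glycogen to glycolysis, read 11.62, 11.77 and 11.84 against 11.09, 11.69 and 11.29, a change of -0.39 ± 0.15 (SE; limma adjusted p = 0.206). As in Pygm, knockout array 2 lay inside the wild type range of Pgm1. Gsk3a, a kinase that inactivates glycogen synthase, was at -0.27 ± 0.12 (SE; adjusted p = 0.28), and Ppp1r2, an inhibitor subunit of protein phosphatase 1, at -0.16 ± 0.091 (SE; adjusted p = 0.398). Pgm2, a related phosphopentomutase, was at 0.24 ± 0.11 (SE; adjusted p = 0.29). Without knockout array 2, Gaa fell by 0.61 (limma adjusted p = 0.0201), Pgm1 by 0.56 (adjusted p = 0.0226) and Gsk3a by 0.39 (adjusted p = 0.046), 3 of the 23 where 3.60% of all genes fell. Here too these p-values are a description only, as that array was singled out from the same values.

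Partners of the muscle isoforms that are best known from other tissues had changes in both directions, and 0 of them passed. Pygb and Pygl, the brain and liver phosphorylases, were at 0.15 ± 0.14 and 0.076 ± 0.17 (SE), against -0.25 for Pygm. The arrays differed: in knockout arrays 1, 2 and 3 Pygb deviated from its wild type mean by 0.38, -0.086 and 0.16 and Pygl by 0.34, -0.20 and 0.086, where Pygm deviated by -0.43, -0.013 and -0.29. Phka2, the liver alpha subunit of the kinase, was at 0.18 ± 0.11 (SE), and Phkg2, the liver and testis gamma subunit, at -0.11 ± 0.10 (SE). The other targeting subunits Ppp1r3b, Ppp1r3d, Ppp1r3e, Ppp1r3f and Ppp1r3g were at 0.041, -0.037, 0.12, -0.15 and 0.017, with SEs of 0.11 to 0.14, the last 3 of them named after their values were seen. Adjusted p-values of these 9 genes ran from 0.418 to 0.959, and the difference between isoforms was not tested. The direction of Pygl, Ppp1r3b, Ppp1r3d and Ppp1r3g turned with single arrays or with another scaling or weighting. Several of these partners were dim, with wild type means of 4.86 for Ppp1r3f, 5.13 for Ppp1r3b, 5.25 for Ppp1r3g, 6.01 for Ppp1r3d and 6.32 for Pygl. Ppp1r3f, Ppp1r3b and Ppp1r3g fell under a dim filter at the 50th percentile. Changes of dim genes can be understated.

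Markers of fibre types and of other cells also varied between these arrays. The 8 general skeletal muscle fibre markers split into 3 positive and 5 negative changes, with a summed intensity of 53500 to 53800 in wild types and 48200 to 54900 in knockouts. Their mean deviated by -0.12, 0.056 and 0.13 in knockout arrays 1, 2 and 3. Knockout array 3 had the highest fibre sum of the 6 arrays, but the markers were divided there. Myh1 read 12.36 and Ttn 12.42, against wild type means of 11.57 and 11.63, and Mb also lay above every wild type. Acta1, Ckm, Myh4, Tnnc2 and Des lay below every wild type in that array. These markers are named after their values were seen. All 9 fast glycolytic fibre markers had negative changes, 3 of them at an unadjusted p of 0.05 (10.3% of all genes), with a summed intensity of 65400 to 65600 in wild types and 56500 to 62800 in knockouts. Knockout arrays 1, 2 and 3 deviated by -0.26, -0.067 and -0.22 on average, the order seen for Pygm. The 8 slow oxidative fibre markers were all negative too, but with another order of arrays, at -0.73, -1.05 and 0.32, and a summed intensity of 6390 to 7350 against 3550 to 8920. One of them, Myl3, passed over all genes, where 0.995% did, and is named after its value was seen. Fibroblast, macrophage and tendon markers had higher summed intensities in every knockout array than in any wild type array, and 5, 7 and 3 of them were higher at an unadjusted p of 0.05 (8.16% of all genes), with 0 past the threshold over all genes (0.995% of all genes). The summed intensity of 7 fibroblast markers was 10800 to 11700 in wild types and 12100 to 16500 in knockouts, with all 7 positive and the knockout arrays at 0.76, 0.19 and 0.87. For 8 macrophage markers, all positive, the sums were 2150 to 2420 and 3030 to 5580, and for 7 tendon markers, all positive, 3260 to 4660 and 5250 to 9430. Single markers of these lists went the other way in some knockout arrays. The fibroblast marker Dcn (12.56) and the tendon marker Fmod (10.22) in knockout array 3 lay below every wild type. So did the tendon marker Mkx in knockout array 2 (5.62). They are named after their values were seen. The 6 adipocyte markers tested were all negative, with sums of 2200 to 3930 and 2230 to 2740 and wild type array 1 at -0.75. The 5 endothelial markers split into 2 positive and 3 negative, with sums of 2570 to 2860 and 1910 to 3510. Of 7 erythroid markers only Alas2 had a probe set of its own symbol, with intensities of 75.5 to 94.0 and 36.2 to 60.9. No marker with a probe set lay under the dim filter. The part of these cells in the differences of the glycogen genes was not tested.

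**Figure D4:**
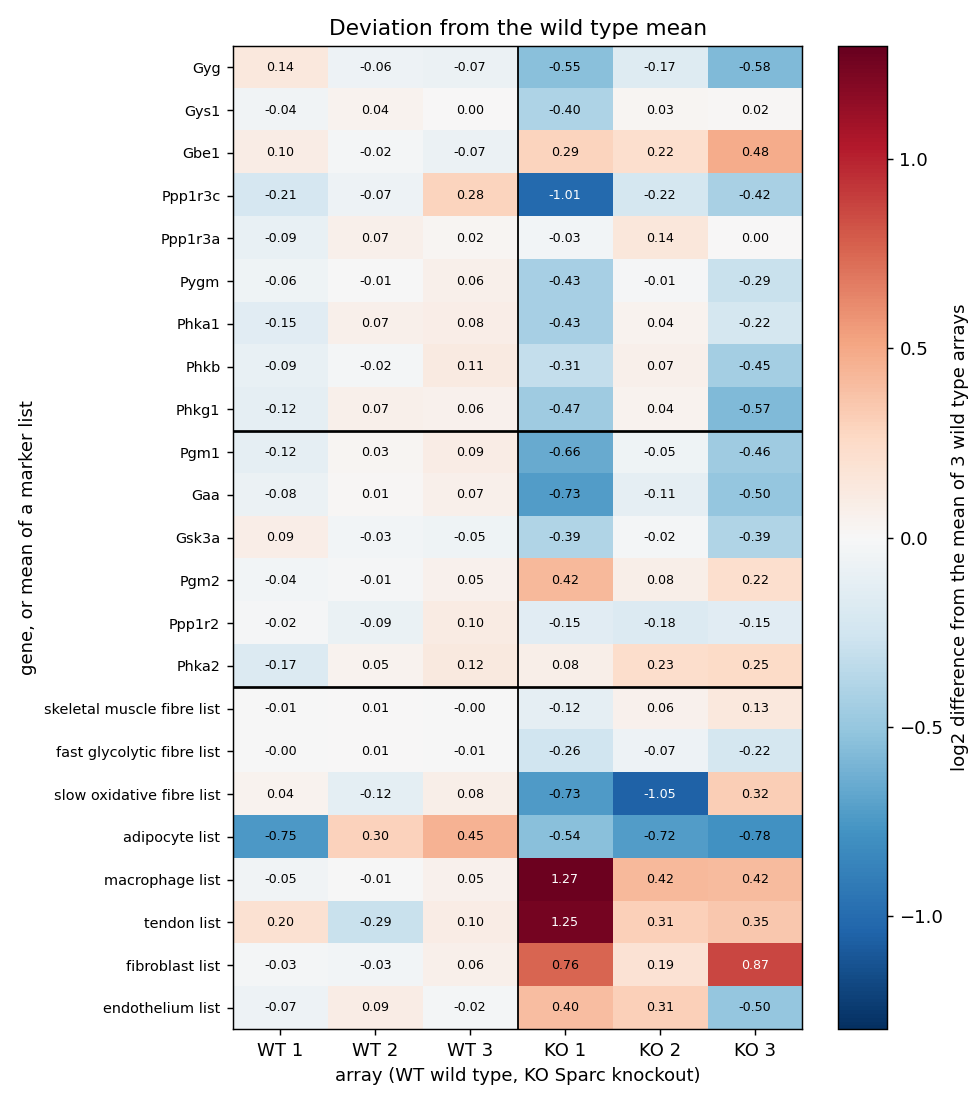
Log2 difference from the mean of the 3 wild type arrays (colour and printed value) for the 9 glycogen genes, the 6 other glycogen genes with the smallest p, and the mean of each marker list (rows), in each array (columns). Knockout arrays 1 and 3 are blue for Pygm, the kinase subunits, Pgm1 and Gaa, and knockout array 2 is near 0 for these genes. Knockout arrays 1 and 3 are also blue for the fast glycolytic fibre list. The fibroblast, macrophage and tendon lists are red in every knockout array.

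As a description over the 6 arrays, the genes whose centred profile lay nearest to that of Pygm were Alas1, Dcaf6 and Cap2, with root-mean-square differences of 0.017, 0.024 and 0.033. Phka1 was the nearest glycogen gene to Pygm, at 0.058, placed 98 among all genes. For Gys1 the nearest were Trim41, 4930474M22Rik and 4930438A08Rik, at 0.015, 0.022 and 0.023, each with a low value in knockout array 1 only. No glycogen gene came closer to Gys1 than Ppp1r3d, at 0.089.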

How the data were processed

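Intensities deposited by the authors are RMA probe-set summaries on a linear scale (1.59 to 13565.8 over 35556 probe sets), for which the submitters' processing notes name Affymetrix Expression Console 1.3.0.187. This method corrects background, normalizes between arrays and can understate changes of dim genes. Genome build: not given in the sources used here. Since the design had assumed log2 values, log2 was taken first, with no offset. Of the probe sets, 21789 had 1 platform symbol (21698 matched RefSeq by Entrez ID), 1621 had several and were not used, and 12146 were unnamed.

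The probe set with the highest mean stood for a gene. Genes with a mean under the 25th percentile of probe sets (3.90) were removed (3451), leaving 16487. The genotype term was fitted in limma 3.58.1 under R 4.3.3 (eBayes with trend, two-sided, Benjamini-Hochberg, threshold 0.05). The procedure was tested on simulated data with changes larger than those of the 9 genes and equal spread in both groups. That test does not show how it performs on changes and spreads like theirs. Named were the 9 genes, the 6 other pathway genes with the smallest p, isoform partners, and the nearest profiles of Gys1 and Pygm; 1 listed gene is not reported here. Genes, lists and alternatives were chosen with earlier results of these data known.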

Additional observations from a re-analysis of the deposited data

How the results depend on the processing

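With the replicate number as a block (replicate block), 5 of the 9 glycogen genes were under an unadjusted p of 0.05, as after median centring, in place of 3. Of all 16487 genes, 2794 were under it with the block and 2941 after median centring, in place of 3036. With the block 0 of the 9 passed over all genes, where 123 genes did in all. The numbers were not taken as pairs: deviations of same-numbered arrays from their group means correlated at 0.009, 0.082 and -0.02, and not every array correlated best with its own number. Median centring gave 103 genes past the threshold and array weights 329, in place of 164. Centring turned the split at an unadjusted p of 0.05 from 1345 higher and 1691 lower to 880 and 2061. With 1 array left out, counts ran from 27 to 1017 for all genes past the threshold, 1993 to 3709 for all genes at an unadjusted p of 0.05, 0 to 3 for the 9 glycogen genes past the threshold and 1 to 7 at an unadjusted p, and 0 to 3 and 0 to 5 for the other pathway genes, the highest without knockout array 2. Direction turned for some small changes. Gys1 ran from -0.19 to 0.024 with 1 array left out, Ppp1r3a from -0.014 to 0.074, Pygl from -0.064 to 0.21, Ppp1r3b from -0.034 to 0.14, Ppp1r3d from -0.13 to 0.069 and Ppp1r3g from -0.057 to 0.098. Ppp1r3a was at -0.0018 after median centring, Pygl at -0.082 and Ppp1r3d at 0.014 with array weights, and Ppp1r3b and Ppp1r3g at -0.0002 and -0.024 after median centring and -0.0028 and -0.023 after a second quantile normalization. The causes were not tested. Gyg, Gbe1, Ppp1r3c, Pygm, Phka1, Phkb and Phkg1 kept their direction in all 16 alternatives, and Sparc its call. The block, the other dim filters, the variance settings and the averaging of probe sets left each of these changes identical. Direction could therefore turn only with another scaling, array weights, an offset before log2 or an array left out. With 3 arrays a group, the 95% intervals of the 9 genes reach 0.20 to 0.47 to either side, which limits what could be detected.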
